A study of Mus musculus with 1392 samples.

Results

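The loci of Gata2, Tal1 and Lmo2 were described through every peak of a single-cell ATAC-seq count table that overlapped a fixed mm9 window around each gene. The windows were chr6:88050000-88180000 for Gata2, chr4:114700000-114800000 for Tal1 and chr2:103700000-103835000 for Lmo2. They held 68 of the 115295 peaks of the table, of which 26 lay in the Gata2, 17 in the Tal1 and 25 in the Lmo2 window. Peaks are numbered here within each window by position, so that Gata2 peak 1 is the one with the lowest coordinate.

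ATAC-seq reads out open chromatin through a transposase that inserts sequencing adapters where DNA is accessible. Stem cells of C57BL/6 mice, young or old, had been sorted from bone marrow as LSK cells (lineage-negative, Sca-1 and Kit positive) that were CD150+, CD48-, CD34- and Vwf+, and each library was 1 cell. The 332 young cells came in 2 numbered sets and the 1060 old cells in 3, and the labels used here give neither the age in months nor what a set stands for (mouse, pool of mice or plate). Counts were summed per set and each set was taken as 1 replicate, so a p-value reflects no more than set-to-set variation, part of which may be technical. No set mixed young with old cells, so that effects of age and of how a set was prepared cannot be told apart. The sums ran from 1159957 counts in young 1 to 4181770 in old 1, and the median per cell ran from 3604.5 in old 3 to 11807 in young 2. The sort markers were not checked at their own loci, since no annotation of mm9 was used.

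GATA2, TAL1 and LMO2 are members of a transcription factor network of blood stem and progenitor cells. GATA2 is a zinc finger protein that binds the GATA motif, TAL1 (also called SCL) is a basic helix-loop-helix protein that binds E-boxes with a partner of the same class, and LMO2 has LIM domains and no DNA-binding domain of its own, and bridges such proteins in a complex. The Gata2 gene is also known for a distal enhancer far upstream, which acts in haematopoietic progenitors.

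The promoters below are shown because they let the motifs of these same proteins be read in front of their own genes. RefSeq promoters (250 bases before to 50 after a gene's start, build GRCm38.p6) were at hand for 2 of the 3 genes, Gata2 and Tal1, with 2 starts each. Both sequences are on the plus strand, and their GRCm38.p6 positions are not comparable with the mm9 positions of the peaks. Capitals mark GATAA, read on either strand so that it can appear as TTATC, and the E-box CANNTG.
Gata2 promoter 2, chr6:88198414-88198713: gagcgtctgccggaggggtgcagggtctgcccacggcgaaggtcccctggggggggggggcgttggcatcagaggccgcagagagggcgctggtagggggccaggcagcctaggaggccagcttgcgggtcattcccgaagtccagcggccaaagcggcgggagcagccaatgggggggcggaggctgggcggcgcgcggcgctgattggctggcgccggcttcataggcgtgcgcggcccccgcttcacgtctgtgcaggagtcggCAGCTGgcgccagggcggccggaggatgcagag
Tal1 promoter 1, chr4:115056176-115056475: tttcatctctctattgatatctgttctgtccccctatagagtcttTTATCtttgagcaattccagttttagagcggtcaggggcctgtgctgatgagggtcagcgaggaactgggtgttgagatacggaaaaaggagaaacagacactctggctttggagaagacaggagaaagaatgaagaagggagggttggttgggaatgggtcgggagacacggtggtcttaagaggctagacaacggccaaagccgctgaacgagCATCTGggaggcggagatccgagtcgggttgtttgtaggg

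Tal1 promoter 1 held both kinds of match, with GATAA at base 46 and an E-box at base 261 counted from the first base shown. Gata2 promoter 2 held 1 E-box, at base 268, and no GATAA. The other Gata2 and the other Tal1 promoter held neither, which says only that these letters are not in those 300 bases. For comparison, GATAA was present in 25.4% and CANNTG in 72.3% of the 32851 promoters of the same length in that RefSeq set. The core letters of the ETS motif, GGAA on either strand, which can share bases with the other motifs, were present in all 4 promoters of these genes and in 96.0% of all promoters. These matches are a description of the letters and do not show binding.

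The windows were dense in peaks. They held 20 peaks per 100 kb at Gata2, 17 at Tal1 and 18.5 at Lmo2, where the median 100-kb bin with any peak held 5 and the 90th percentile was 13. Peaks covered 12.1% of the Gata2, 11.2% of the Tal1 and 11.4% of the Lmo2 window. Each window also had a stretch of about the same size without a peak, of 22.9 kb at Gata2, 19.1 kb at Tal1 and 23.4 kb at Lmo2. The peaks were uneven in strength, from 2 counts over all cells at Gata2 peak 13 to 1138 at Tal1 peak 14, against a median of 46 for all peaks of the table. The 4 strongest peaks held 47.7% of the counts of the Gata2, 61.5% of the Tal1 and 43.5% of the Lmo2 window.

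**Figure D1:**
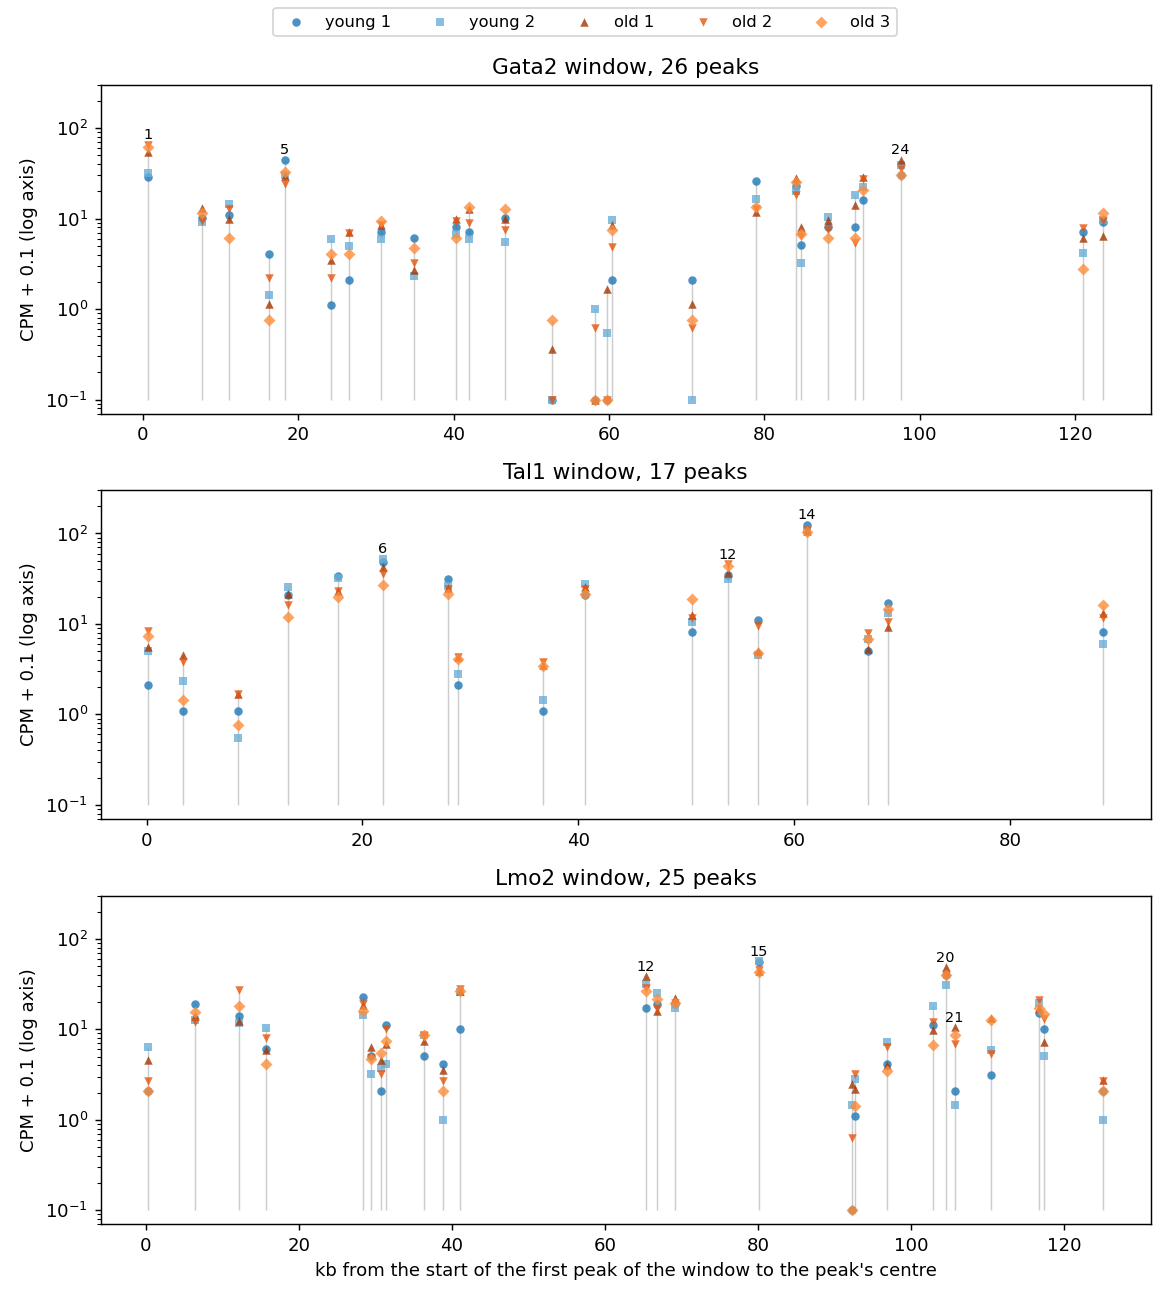
Accessibility of all 68 peaks in each set, as CPM plus 0.1 on a log axis, against the distance of the peak's centre from the start of the first peak of its window; symbols are the 5 sets, and the strongest and the called peaks carry their number. Tal1 peak 14 stands above all other peaks in every set, and the old symbols lie above the young ones at Gata2 peak 1 and Lmo2 peak 21.

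Of the 68 peaks, 50 had enough counts to be tested for a difference between ages, and 2 of these passed. Both were more accessible in old cells, Gata2 peak 1 at the upstream edge of its window and Lmo2 peak 21 (edgeR quasi-likelihood test, Benjamini-Hochberg adjusted p under 0.05 over all tested peaks). Among all 58167 tested peaks 3.17% passed, and 1.39% passed with higher values in old cells. Against that background 2 of 50 is not a result about these loci as a group. No peak of the Tal1 window passed. The log2 fold change of old over young was positive at 30 and negative at 20 of the tested peaks, with a median of 0.12 against -0.01 over all tested peaks. The sets of both ages did not overlap at 16 of the 50, with old above young at 11 and below at 5. Either order held for 33.2% of all tested peaks, with old above at 9568 and below at 9715. The 11 include Gata2 peak 20, Tal1 peak 1 and Lmo2 peak 21. At each of these both young sets lay below the cutoff of the count filter, scaled to library size. They were tested only because of their counts in old cells, so 11 against 5 is no result about direction. An unadjusted p under 0.05 was found at 8 of the 50, against 15.4% of all tested peaks. DESeq2 called none of the 50, where it called 0.77% of all tested peaks. Its unadjusted p was under 0.05 at 2 of the 50, against 7.35% of all tested peaks. Leaving out old 1 or old 2 gave 1 call each, where 2.72% and 1.96% of all tested peaks passed. Leaving out old 3 gave 2, where 1.32% passed. Without either young set, which leaves 1 young set, the calls were not both kept.

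The 18 peaks that were not tested had at most 52 counts each, 7 at Gata2, 4 at Tal1 and 7 at Lmo2. For 42 of the 50 tested peaks the interval of 1.96 standard errors on either side of the fold change included 0. The median standard error was 0.35 on the log2 scale, so a difference of that size would not pass.

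**Figure D2:**
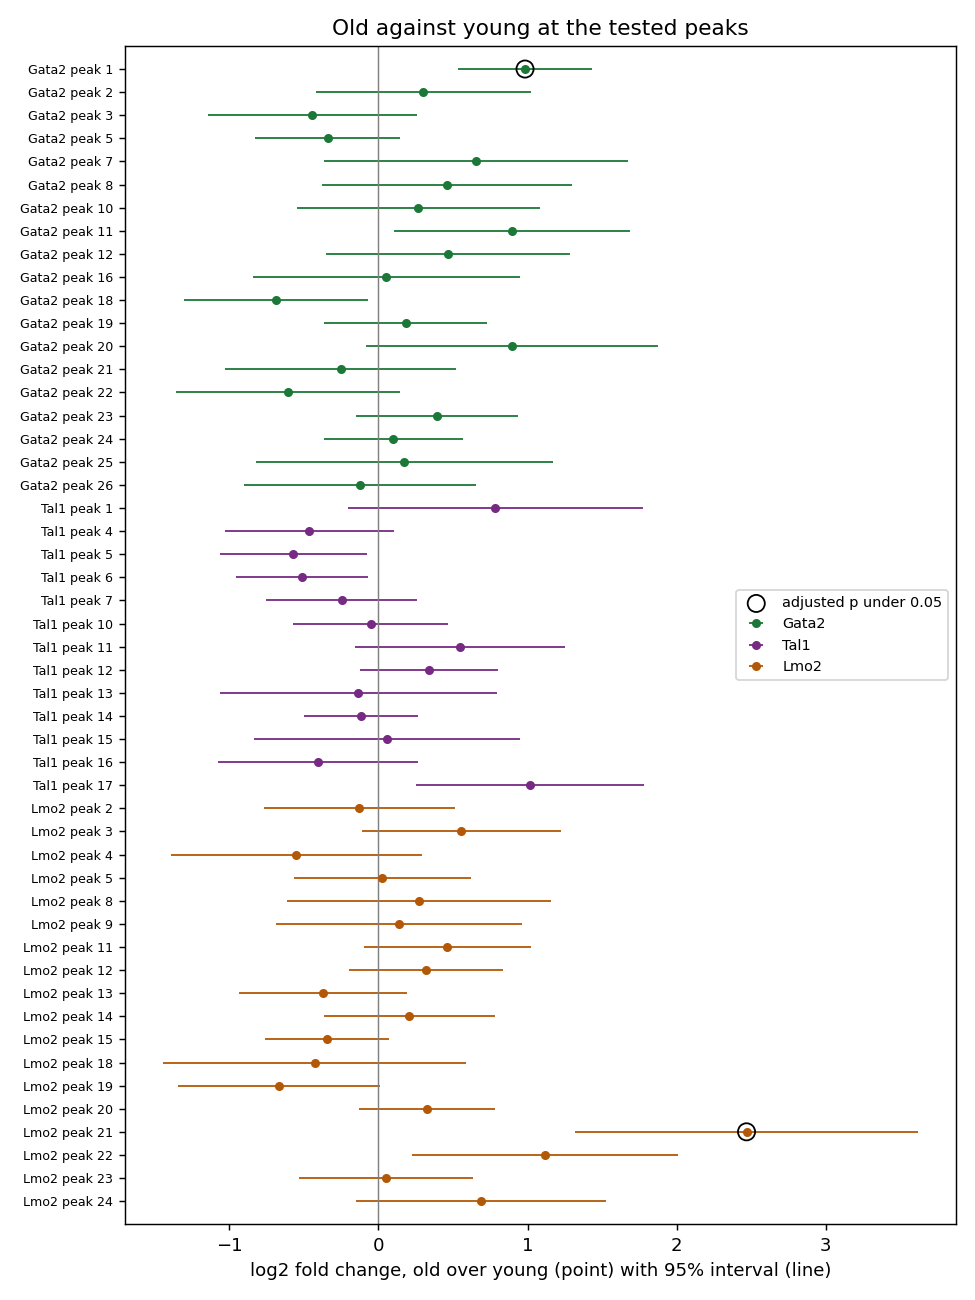
Log2 fold change of old over young for the 50 tested peaks, by window and position, with 1.96 standard errors on either side; rings mark the peaks with an adjusted p under 0.05. The ringed points are Gata2 peak 1 at 0.98 and Lmo2 peak 21 at 2.47, and the lines of 42 peaks cross 0.

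Gata2 peak 1 (chr6:88055773-88057172, mm9 as the table names it, 1399 bp) was the strongest peak of the Gata2 window, with 526 counts in 24.8% of all cells. In CPM (counts scaled to the same TMM-adjusted total of tested peaks in every set) it stood at 28.9 in young 1 and 31.4 in young 2, and at 54.8, 65.6 and 61.1 in old 1, old 2 and old 3. All old sets lay above both young sets, with means of 60.5 ± 5.43 (SD, n = 3) and 30.2 ± 1.78 (SD, n = 2). The log2 fold change was 0.98 (standard error 0.23, 1.98-fold, edgeR adjusted p = 0.00602). The 5 cells with the most counts held 5.70% of them.

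The call at Gata2 peak 1 depended on the setting. It was lost with DESeq2 (adjusted p = 0.0535), with each cell counted once per peak (log2 fold change 0.71, edgeR adjusted p = 0.112), and without young 1, young 2 or old 2 (edgeR adjusted p = 0.0544, 0.0748 and 0.0555). Across those 5 alternatives the log2 fold change stayed between 0.71 and 1.085. When each cell was thinned to 1906 counts, a first random draw gave a log2 fold change of 2.03 (edgeR adjusted p = 6.54e-04) and a second gave 0.85 (edgeR adjusted p = 0.365). The share of cells with a count at 1906 counts per cell was also averaged over all possible draws, a measure added after these draws were seen to differ. It was 3.91% and 6.08% in the young sets compared with 8.94%, 10.6% and 9.03% in the old, without overlap. These shares come from the same counts as the call and are no separate support. How often they fail to overlap at other peaks was not measured.

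Lmo2 peak 21 (chr2:103811295-103811672) was a weak peak with 71 counts over all cells. Only 5 of these came from young cells, 2 from young 1 and 3 from young 2, while old 1, old 2 and old 3 gave 40, 13 and 13. Both young sets lay below the cutoff of the count filter. The peak was therefore tested only because of its counts in old cells, which limits what the call can show. In CPM it stood at 1.99 and 1.35 in the young sets against 10.5, 6.77 and 8.63 in the old. Every old set was therefore above both young sets. The means were 1.67 ± 0.457 (SD, n = 2) in young and 8.63 ± 1.86 (SD, n = 3) in old sets, and the log2 fold change was 2.47 (standard error 0.59, edgeR adjusted p = 0.00746). The 5 cells with the most counts held 15.5% of them. The call was lost with DESeq2 (adjusted p = 0.230) and, in edgeR, without young 2 (adjusted p = 0.248) or without old 1 (adjusted p = 0.0883), with log2 fold changes of 2.15 to 2.47. In thinned cells and at a minimum count of 30 it had too few counts to be tested.

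Lmo2 peak 20 (chr2:103809473-103811133) ended 162 bp before peak 21 and was not called. Its CPM was 39.8 and 31.0 in the young sets versus 48.8, 39.6 and 39.8 in the old, which overlapped (log2 fold change 0.33, edgeR adjusted p = 0.540). Per 100 counts of peak 20, peak 21 had 5 and 4.35 in the young sets compared with 21.5, 17.1 and 21.7 in the old. These ratios were higher in every old than in every young set. They were taken after peak 21 had been called and so repeat that call, with no test of their own.

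**Figure D3:**
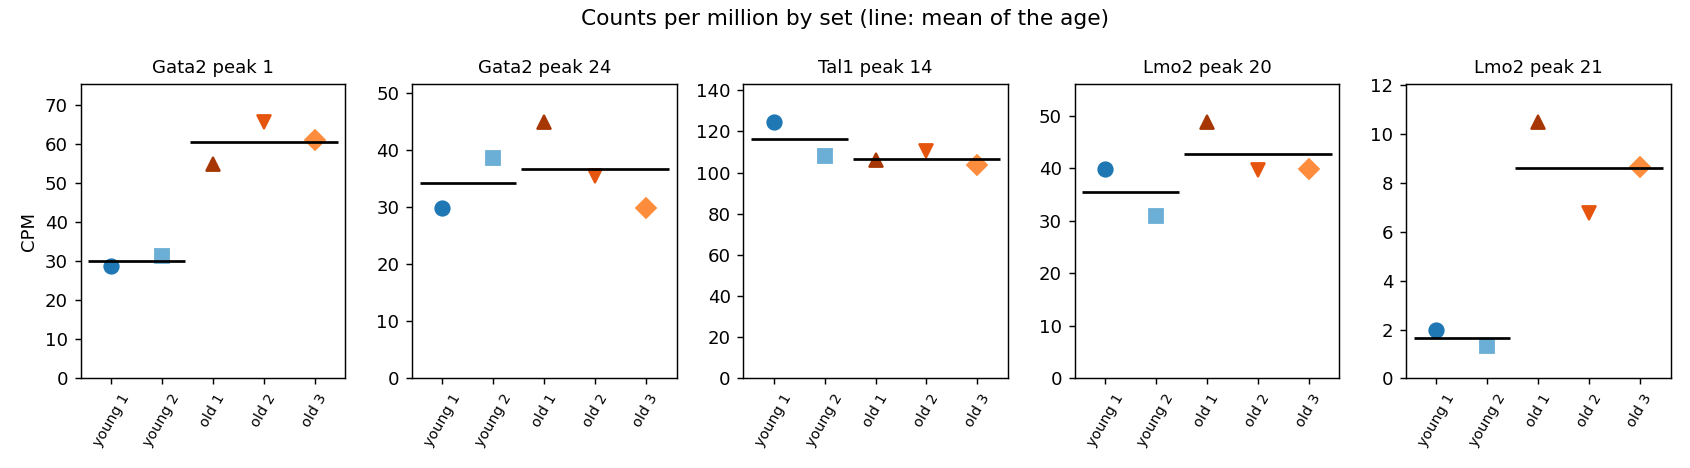
CPM of 5 peaks in each of the 5 sets, each panel with its own axis from 0, with a line at the mean of each age. The old sets are all above the young sets at Gata2 peak 1 and at Lmo2 peak 21, while the ages overlap at Gata2 peak 24, Tal1 peak 14 and Lmo2 peak 20.

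The rest of the Gata2 window was taken by position, from the distal enhancer to the gene. The enhancer position named with the window is approximate, given as near 88070000 on chromosome 6. That base was itself not inside a peak. The nearest was Gata2 peak 4 (chr6:88071846-88072088), 1846 bp away, with 16 counts in all and too few to test. Its CPM was 3.99 and 1.35 in the young sets against 1.05, 2.08 and 0.664 in the old, and the ages overlapped. On the other side, 2584 bp from that position, lay Gata2 peak 3 (chr6:88066402-88067416) with 113 counts. It had 11.0 and 14.4 CPM in the young sets against 9.70, 12.5 and 5.98 in the old, which overlapped (log2 fold change -0.44, edgeR adjusted p = 0.598). Gata2 peak 5 (chr6:88073468-88074550), 3468 bp from that position, was the strongest near it, with 321 counts. It had 44.8 and 30.5 CPM in the young sets versus 29.6, 24.0 and 32.5 in the old, so old 3 was above young 2 (log2 fold change -0.34, edgeR adjusted p = 0.546).

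Peaks 21 to 24 overlapped the gene itself, placed at about 88144000 to 88157000. Gata2 peak 24 (chr6:88152908-88153757) was the second strongest of the window with 400 counts and the highest per kb, at a mean of 42.1 CPM per kb. It had 29.9 and 38.6 CPM in the young sets compared with 44.9, 35.4 and 29.9 in the old, a full overlap (log2 fold change 0.10, edgeR adjusted p = 0.895). Gata2 peak 23 had 15.9 and 22.4 in the young sets against 28.9, 27.6 and 20.6 CPM in the old, where old 3 was below young 2 (0.39, edgeR adjusted p = 0.532). None of the 4 peaks at the gene passed the test.

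Gata2 peak 22 (chr6:88147282-88147604) had 7.97 CPM in young 1, 17.9 in young 2 and 13.9, 5.21 and 5.98 in the old sets. Young 2 and old 1, the sets with the most counts per cell, were its high ones (log2 fold change -0.61, edgeR adjusted p = 0.468), and whether depth has a part in this was not tested. Without young 2 its log2 fold change turned to 0.25. Gata2 peak 21, which reaches over that stated start of the gene, had 7.97 and 10.3 CPM in the young sets versus 9.44, 7.29 and 5.98 in the old (-0.25, edgeR adjusted p = 0.822), and 0.02 without young 2.

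Tal1 peak 14 (chr4:114768016-114769698, 1682 bp) was the strongest peak of all 3 windows. It had 1138 counts, more than 99.8% of the peaks of the table, and was found in 40.6% of cells. Its CPM was 125 and 108 in the young sets compared with 106, 110 and 104 in the old. The ages overlapped, with old 2 above young 2, and the log2 fold change was -0.12 with an interval of -0.50 to 0.27 (edgeR adjusted p = 0.840). It was also the highest of its window per kb, with a mean of 65.7 CPM per kb.

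The next peaks of the Tal1 window leaned either way. Tal1 peak 6 (chr4:114728994-114730162) had 48.8 and 52.5 CPM in the young sets against 42.0, 35.9 and 26.6 in the old, all below young (log2 fold change -0.51, edgeR adjusted p = 0.243). Tal1 peak 5 (chr4:114725114-114725685) had 33.9 and 32.3 in the young sets versus 23.1, 22.9 and 19.9 in the old, also below (-0.57, edgeR adjusted p = 0.249). Tal1 peak 12 (chr4:114761165-114761993) had the opposite order, with 34.9 and 31.4 CPM in the young sets compared with 36.7, 45.3 and 43.8 in the old (0.34, edgeR adjusted p = 0.519). None of the 3 passed, although their sets did not overlap. The same was so for 7 of the 13 tested Tal1 peaks, against 33.2% of all tested peaks, a difference that was not tested. Tal1 peak 17 had the smallest adjusted p among the peaks of all 3 windows that were not called, with a log2 fold change of 1.01 (edgeR adjusted p = 0.159).

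Lmo2 peak 15 (chr2:103785088-103786751, 1663 bp) was the strongest of the Lmo2 window, with 499 counts. It had 55.8 and 56.1 CPM in the young sets against 43.5, 45.3 and 43.2 in the old. Both young sets were above all old sets, but the log2 fold change of -0.35 did not pass (edgeR adjusted p = 0.447). Lmo2 peak 12 (chr2:103770849-103771502) had 16.9 and 31.4 in the young sets versus 38.8, 28.7 and 26.6 CPM in the old, with young 1 low and the ages overlapping (0.32, edgeR adjusted p = 0.608). Lmo2 peak 11 (chr2:103746294-103747454) was low in young 1 alone, at 9.96 CPM, with 25.6 in young 2 and 26.5, 28.1 and 26.6 in the old sets (0.46, edgeR adjusted p = 0.456). Without young 2, which leaves young 1 as the lone young set, its log2 fold change was 1.46, and without young 1 it was 0.09.

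As a whole, none of the 3 windows passed the test, in a fit of their summed peaks with all 100-kb bins, in which 5.51% of 16709 bins and windows passed. None had an unadjusted p under 0.05, against 18.8% of all bins and windows. With library totals 1 of the 3 did, against 19.4% of all, and with thinned cells 1 did, against 11.8%. DESeq2 called none either, where it called 2.32% of bins and windows. The Gata2 window held 243.7 and 248.7 CPM in the young sets compared with 299.7, 262.3 and 264.1 in the old (log2 fold change 0.16, standard error 0.12, edgeR adjusted p = 0.491). The Lmo2 window held 264.9 and 290.7 in the young sets against 315.7, 306.8 and 291.4 CPM in the old (0.13, standard error 0.12, edgeR adjusted p = 0.594). Both leaned towards old, and old sets were above young ones without overlap, as in 36.3% of all bins and windows either above or below. The Tal1 window leaned the other way, with 328.5 and 320.1 CPM in the young sets versus 312.4, 312.4 and 290.8 in the old (-0.08, standard error 0.11, edgeR adjusted p = 0.746), and here too the ages did not overlap. The intervals of 1.96 standard errors allow a ratio of old to young of 0.953 to 1.32 at Gata2, 0.934 to 1.28 at Lmo2 and 0.808 to 1.10 at Tal1.

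The lean at Gata2 had not passed the test, and leaving out Gata2 peak 1, already called as higher in old cells, must lower it. Without the strongest peak of each window the log2 fold change at Gata2 was 0.02, and at Lmo2 and Tal1 it was 0.21 and -0.07.

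The part of a window's counts held by its strongest peak was also compared between ages. Gata2 peak 1 took 10.5% and 11.4% of the counts of its window in the young sets compared with 16.6%, 22.3% and 20.7% in the old. That peak had been called from the same counts, so its share largely repeats the call and is no separate support. Lmo2 peak 15 went the other way, from 18.7% and 17.4% of its window in the young to 12.5%, 13.1% and 13.2% in the old sets. Neither pair of groups overlapped (exact two-sided permutation p = 0.1 at both windows, which is the smallest value it can take, adjusted p = 0.15 over the 3 windows). With each cell counted once per peak, the share of Gata2 peak 1 was 10.4% and 11.3% in the young sets versus 12.6%, 19.7% and 18.0% in the old, still without overlap (exact permutation p = 0.2, adjusted p = 0.4). The ages overlapped at Lmo2 peak 15 with each cell counted once per peak, and in thinned cells. Tal1 peak 14 held 33.6% and 30.4% of its window in the young sets against 30.8%, 31.5% and 31.8% in the old, which overlapped (exact permutation p = 0.8). How often such shares fail to overlap elsewhere in the genome was not measured.

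The 5 Gata2 peaks within 10 kb of the enhancer position, peaks 2 to 6, together held a smaller part of the window's counts in old cells. It was 25.7% and 22.1% in the young sets versus 17.3%, 17.0% and 18.4% in the old, without overlap (exact two-sided permutation p = 0.1, the smallest possible). Since peak 1 lies outside these 10 kb and took a larger part in old cells, the share was also taken without it, an alternative added with the data in view. It then was 26.8% ± 2.71 (SD, n = 2) in the young and 21.9% ± 1.27 (SD, n = 3) in the old sets, still without overlap. With each cell counted once per peak the difference shrank from -6.36 to -3.25 percentage points. The shares were then 22.5% and 20.4% in the young sets against 17.8%, 17.8% and 19.1% in the old, still without overlap. Peak 5 had 17 of its counts in 1 cell, and its log2 fold change was -0.04 with each cell counted once. Peaks 2, 3 and 5 did not pass when tested alone, and peaks 4 and 6 had too few counts to test.

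**Figure D4:**
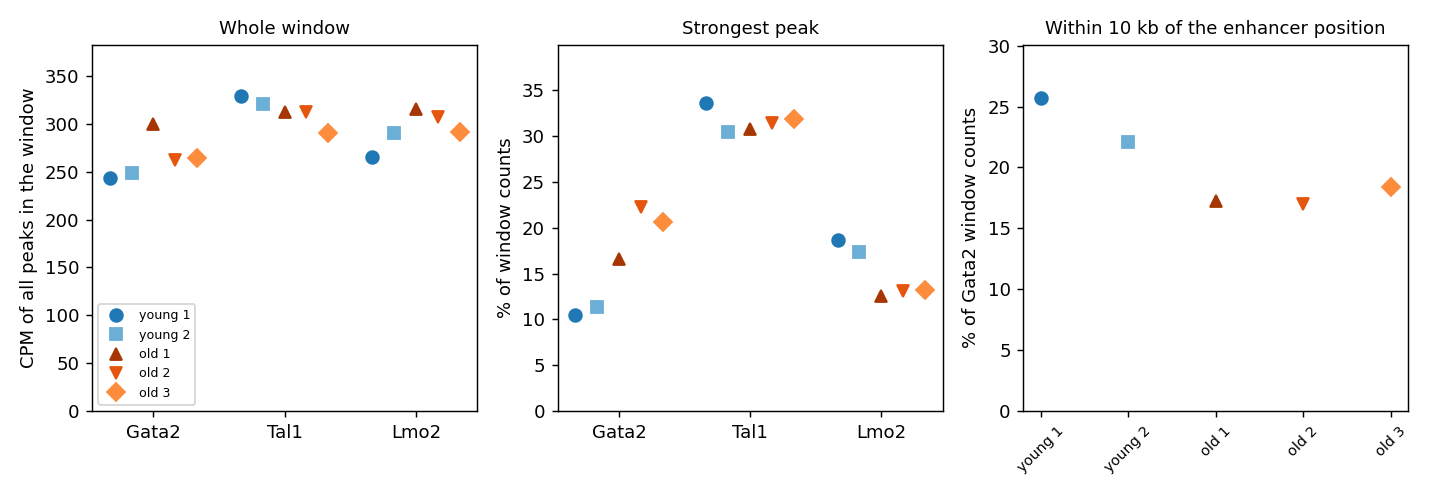
Left, CPM of all peaks of each window; middle, the part of a window's counts in its strongest peak; right, the part of Gata2 counts within 10 kb of the enhancer position; each symbol is 1 set and all axes start at 0. The old sets are higher at Gata2 peak 1 (16.6% to 22.3% against 10.5% and 11.4%) and lower in the enhancer zone (17.0% to 18.4% against 22.1% and 25.7%). The share of Gata2 peak 1 largely repeats that peak's call.

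The share of cells with any count in a window depended on how depth was made equal. In 1 random thinning of each cell to 1906 counts, 31.6% and 28.1% of young and 42.3%, 41.4% and 40.6% of old cells had a count at Gata2 (exact permutation p = 0.1, adjusted 0.15). A second draw left a difference of 0.591 percentage points, with the ages overlapping. The share expected over all draws at Gata2 averaged 34.4% ± 0.365 for the young (SD, n = 2) and 40.2% ± 1.40 for the old sets (SD, n = 3), while Lmo2 had 37.6% ± 1.30 and 43.4% ± 2.68. At both the old sets lay above the young ones (exact permutation p = 0.1 and 0.2, adjusted 0.3 for each). Each of these 2 windows includes its called peak, so the shares in part repeat the calls and are no separate support. Gata2 peak 1 alone was expected in 3.91% and 6.08% of young and 8.94%, 10.6% and 9.03% of old cells. How often such shares fail to overlap elsewhere in the genome was not measured. At Tal1 the share over all draws was 43.4% ± 0.687 and 43.0% ± 1.84, and the ages overlapped (exact permutation p = 0.8). Without thinning, 75.0% ± 10.0 of young and 66.3% ± 5.76 of old cells had a count at Gata2, and the depth of the sets differs in these values.

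Pooled over the 3 windows, peaks of a window were not found together in the same cells more than peaks of different windows. Over 13 strong or called peaks and 1252 thinned cells, 22 pairs within a window had 100 cells with both, where 92.9 were expected from the shares in each set, a ratio of 1.08. The 56 pairs across windows had 275 cells against 255 expected, a ratio of 1.08 as well. At this depth the median cell had a count in 1 of the 68 peaks in young 1, young 2, old 2 and old 3, and in 2 in old 1, so that few pairs could be seen. By window the ratio was 1.05 at Gata2, 1.16 at Tal1 and 0.95 at Lmo2, and single pairs within a window ran from 0 to 4.79. These values rest on the first thinning draw alone and are a description with no test.

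The profile over the 68 peaks was similar in all sets. Pearson's r of log2(CPM per kb + 1) across peaks was 0.77 between the young sets and 0.87 to 0.88 among the old sets, and 0.76 to 0.86 between sets of different ages. These correlations are across peaks that share a library and a peak list, so they are given with no p.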

How the data were processed

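The deposited table gives un-normalized counts of each cell in each peak, all of them integers. Bowtie2, with Trim Galore, FastQC, SAMtools and Picard, and the build mm9 are listed in the submitters' processing notes, with no version. Which program called the peaks, on which cells, and whether the table counts reads or fragments: none of this was given in the sources used here. Had cells been pooled for that step, the age with more counts would have weighed more in which regions became peaks.

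Groups and sets came from the titles. Counts were summed per set and fitted over the whole table with edgeR 4.0.16 in R 4.3.3 (TMM, a filterByExpr minimum of 10 counts, robust quasi-likelihood test of old against young, Benjamini-Hochberg adjustment), which was tested on simulated data. A standard error is the log2 fold change divided by the root of its F value. Windows were fitted with 100-kb bins. Shares were compared by exact two-sided permutation over 10 splits of the sets (Python 3.11.15, scipy 1.17.1). Thinning to 1906 counts, the 10th percentile, left out 4 and 5 young and 84, 13 and 34 old cells.

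Alternatives were DESeq2 1.42.0, library totals, no count filter, a minimum count of 30, binarized or thinned cells, a cell filter, the set number as a block, 50-kb bins, and each set left out. Peaks named are the 4 with most counts per window, called peaks, the peak nearest to the enhancer position and those over the Gata2 gene; others are named for their values. The members and lists were chosen with earlier results of these data known. Peaks were not assigned to exons or introns, and gene lists, cell type markers and the sort genes were not analysed here, because the gene table given is of GRCm38.p6.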

Additional observations from a re-analysis of the deposited data

How the results depend on the processing

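The thinned fit with another seed, the expected shares and the share without Gata2 peak 1 were chosen after the data were seen. Of the 50 tested peaks 2 were called. DESeq2 called 0 (0.77% of all tested peaks), binarized cells 1 (3.03%) and a minimum count of 30 called 1 of 21 tested (3.37%). Thinned cells gave 1 of 13 tested and a second thinning 0 of 14, where 1.54% of all tested peaks passed in each. Fewer of the 50 peaks enter all but DESeq2 and binarized cells. Leaving out 1 old set gave 1 to 2, where 1.32% to 2.72% of all tested peaks passed. With 1 young set the calls were not both kept, and the variation of that set is taken from the old sets. The cause of these losses was not tested. Both ages use set numbers 1 and 2, but the deviations of equal numbers correlated at -0.0669 and 0.000777. The main fit therefore used no pairing of sets. Fitting the set number as a block gave 2 calls among the 50, against 1.89% called among all tested peaks.

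No window was called under any alternative. Gata2 turned to -0.034 with the second thinning and Tal1 to 0.0192 when binarized (log2 scale). The share of cells with a count turned to -8.78, -12.7 and -5.31 percentage points at Gata2, Tal1 and Lmo2 without thinning. At Tal1, where it was 0.330, it was also -0.182 with 2 or more counts, -0.421 averaged over all draws, -1.89 with another seed and -2.45 to 2.80 with 1 set left out. The share of Tal1 peak 14 turned to 3.03 binarized and 6.59 thinned points, and ran from -2.23 to 0.978 with 1 set left out. The 15 named peaks with a test kept direction in all but 10 of 198 values, none at a called peak. Another 9 lost the call, 6 at Gata2 peak 1 and 3 at Lmo2 peak 21. Gata2 peak 24 turned to -0.0031 binarized, -0.20 in the second thinning, and ran from -0.0643 to 0.361 with 1 set left out, Tal1 peak 14 to 0.24 binarized and 0.33 and 0.0489 thinned, Lmo2 peak 15 to 0.0925 thinned, and with 1 set left out Gata2 peak 21 ran from -0.4621 to 0.0215 and peak 22 from -1.304 to 0.2464, both positive without young 2. Depth limits the 18 untested peaks and all thinned values, each of which rests on 1 draw.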
